A study of Mus musculus with 3 samples.

Results

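Cluster 1 of these single-cell transcriptomes of mouse cardiac endothelium held 75 cells with at least 1 unique molecular identifier (UMI, 1 captured mRNA molecule) of *Ptprc* or *Spi1*, out of 799 cells in the cluster and 9,562 in the whole data set. They are called leukocyte-gene cells here, and the 724 cells of cluster 1 without a UMI of either gene are called other cells. *Ptprc* and *Spi1* chose the cells, so their own values are a description and were not tested. The question was whether leukocytes from the adult heart lay among the endothelial cells of this cluster.

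Endothelial cells of hearts from GFP transgenic mice, described as female and 12 to 16 weeks old, were sorted as GFP+, CD31+ and VE-Cad+ cells that were negative for CD45 and CD41 and for PDGFRB and PDGFRA. They were taken fresh (0 h) or after 24, 48, 72 or 96 h in co-aggregates with *Mesp1*-derived PSCs, stromal cells sorted from the aorta-gonad-mesonephros region of E11.5 *Mesp1*–DsRed embryos. The gate given for the cells recovered from the co-aggregates was GFP+ CD31+ VE-Cad+ PDGFRA- and names neither CD45 nor CD41. The cells of all times were mixed in each of 3 pools, A, B and C, all of which received the same treatment. Barcodes carry 1 of 3 library suffixes that could not be tied to a pool, and no cell could be tied to a time. The matrix was therefore handled as a single sample. Each suffix holds both classes of cells, so values and ratios within the 3 libraries are given side by side, but no test across them was run. The 95% intervals below cover counting error only. The spread between suffixes is given beside them and holds differences in the mix of cells as well as between libraries.

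2 measurements go against the description of the cells. Y-linked UMIs (*Ddx3y*, *Eif2s3y*, *Kdm5d* or *Uty*) without *Xist* were found in 4,336 of the 9,562 cells (45.3%), *Xist* without Y-linked UMIs in 3,296 (34.5%) and both in 946 (9.89%), although the hearts were described as female. The summed level of genes typical of fetal tissues, such as *Mest*, *Igf2* and *H19*, was 95 UMIs per 10,000 in cells of cluster 0 and 50.4 in those of cluster 2, although the endothelium was described as adult. Sex-linked genes could therefore not be used to tell adult from embryonic cells. The libraries shared 13 cell barcodes, of which 0 belonged to leukocyte-gene cells and 3 to other cells.

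*Ptprc* encodes CD45, the surface phosphatase of nearly all leukocytes, and *Spi1* encodes PU.1, a transcription factor that drives macrophage, granulocyte and B cell genes. Macrophages are the most abundant leukocytes of the healthy heart. They express the lysozyme gene *Lyz2*, complement C1q genes and the receptor gene *Csf1r*, and when activated they secrete interleukin-1 and CC chemokines. Endothelial cells are instead marked by *Cdh5* (VE-Cad) and *Pecam1* (CD31), the proteins on which these cells were sorted.

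*Ptprc* (minus strand of chromosome 1, GRCm38 138,062,861 to 138,175,708) had 168 UMIs in the 75 cells and was present in 48 of them, with at most 10 UMIs in a cell. Its level, in UMIs per 10,000 UMIs of the cells, was 1.91 in suffix 1, 0.844 in suffix 2 and 0.886 in suffix 3. *Spi1* (plus strand of chromosome 2, 91,082,390 to 91,115,756) had 311 UMIs in 64 cells, with at most 20 in a cell, and levels of 3.36, 1.96 and 1.45. Both genes were highest in suffix 1. Both were found together in 37 cells, *Spi1* alone in 27 and *Ptprc* alone in 11. Just inside the rule lay 31 cells with a single UMI, 22 of them of *Spi1* and 9 of *Ptprc*.

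Leukocyte-gene cells made up 9.39% of cluster 1 (7.45–11.6%) and held 15.3% of its UMIs. There were 29 of 384 cells in suffix 1, 24 of 179 in suffix 2 and 22 of 236 in suffix 3. They were the deeper cells, with a median of 17,220 UMIs in suffix 1 against 7,502 in other cells, 11,685.5 against 7,299 in suffix 2 and 10,011.5 against 8,112 in suffix 3. When 5,000 UMIs had been drawn from every cell of at least that depth, 59 of 745 cells of cluster 1 still had a UMI of *Ptprc* or *Spi1*, or 7.92% (6.08–10.1%). At that depth cluster 0 reached 4.71% (3.28–6.52%), cluster 2 had 1.93% (1.58–2.34%) and cluster 3 had 5.86% (3.24–9.63%). By contrast 76.4% (74.2–78.5%) had such a UMI in cluster 5, which holds macrophage and neutrophil genes, as had 12.3% (8.85–16.5%) in cluster 6. The stromal-gene cluster 4, a cell type not known for either gene, had 1.76% (0.807–3.31%) at a deposited median of 19,475.5 UMIs against 7,875 in cluster 1. No profile of empty droplets was used, so the part of free RNA in these shares was not tested. Cluster 1 lay above clusters 2 and 4 beyond the intervals over all cells, while its interval overlapped those of clusters 0, 3 and 6. By suffix, cluster 1 had 7.08%, 11.2% and 6.61%, and cluster 2 had 0.436%, 3.74% and 0.602%. The share of cluster 3 came from suffix 2 alone, with 14 of 138 cells there and 0 of 69 and 0 of 32 cells in suffixes 1 and 3.

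*Lyz2* (minus strand of chromosome 10, 117,277,331 to 117,282,321), the leukocyte gene of this set that did not choose the cells, stood at 101 UMIs per 10,000 in leukocyte-gene cells of suffix 1, 83.8 in suffix 2 and 25.3 in suffix 3. In other cells it stood at 0.424, 0.688 and 0.366. Over all suffixes the log2 ratio was 7.36 (7.21 to 7.53), and 53 of 75 leukocyte-gene cells had a UMI of it against 81 of 724 other cells. The summed *Lyz2* level of leukocyte-gene cells in every suffix lay above that of other cells in every suffix, while single cells of the 2 classes overlapped.

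In a list of 24 genes shared by most leukocytes, which holds neither *Ptprc* nor *Spi1*, 22 of the 23 genes tested were past 2-fold higher in leukocyte-gene cells and 0 were past 2-fold lower. A gene was called past 2-fold when it had at least 0.1 UMIs per 10,000 in the higher class, a ratio of at least 2 over all cells and the same direction in each suffix. Across all 9,140 genes tested, 6.65% were past 2-fold higher and 12.1% past 2-fold lower. The median log2 ratio was 5.95 in the list and -0.32 over all genes tested, with genes at 0 in a class set to 3 UMIs, and the ratios below are read against that shift. Summed over the list, the level was 111 UMIs per 10,000 in suffix 1, 57.1 in suffix 2 and 42.2 in suffix 3, against 2.37, 2.55 and 2.28 in other cells, a log2 ratio of 5.0 (4.92 to 5.07). The order of suffixes in leukocyte-gene cells was that of *Spi1* and *Lyz2*, while *Ptprc* shared only the high value in suffix 1. The list stood between 2.28 and 2.55 in other cells of each suffix.

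The list was led by *Fcer1g*, the shared γ-chain of Fc receptors, at 24.1 UMIs per 10,000 against 0.216 in other cells. *Ctss*, a lysosomal protease of antigen-presenting cells, stood at 10.9 against 0.0379, *Tyrobp*, an adaptor of myeloid receptors, at 10.7 against 0.112 and *Cd52*, a small surface glycoprotein, at 6.57 against 0.0926. *Tyrobp* (plus strand of chromosome 7, 30,413,760 to 30,417,585) had 15.1, 8.83 and 5.76 UMIs per 10,000 in leukocyte-gene cells of suffixes 1 to 3 and at most 0.133 in other cells of any suffix. *Cd48* had 102 UMIs in leukocyte-gene cells and 0 in other cells, which makes it at least 188-fold higher when 3 UMIs over the class are taken as the upper limit. *Ptpn18* was the gene tested that was not past 2-fold, at 0.700 against 0.535.

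The macrophage and monocyte list of 24 genes differed more. Of the 20 genes tested, 16 were past 2-fold higher and 0 past 2-fold lower. Its summed level was 223 UMIs per 10,000 in suffix 1, 145 in suffix 2 and 58.9 in suffix 3, against 1.55, 2.04 and 1.37 in other cells, and the log2 ratio was 6.61 (6.52 to 6.69). After *Lyz2* came *Cd14*, the co-receptor for bacterial lipopolysaccharide, at 20.9 against 0.208. The complement genes *C1qa* and *C1qb* stood at 9.29 against 0.0491 and 7.35 against 0.0758. The lowest level of *C1qa* in a suffix of leukocyte-gene cells was 2.04, and the highest in other cells 0.0603.

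Genes that separate kinds of cardiac macrophage were sparse. They were picked from the list after their values had been seen. *Cd163*, a scavenger receptor of resident macrophages, had 0 UMIs in leukocyte-gene cells, which allows up to 0.0233 per 10,000. *Folr2*, another resident marker, had 9 UMIs, *Ccr2*, which marks macrophages of monocyte origin, had 6, and *Cx3cr1*, the fractalkine receptor, had 14. *Mrc1*, the mannose receptor, had 39 UMIs in 11 cells and none in suffix 3. *Ly6c2*, a marker of inflammatory monocytes, had 16, all in 1 cell.

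Lists of other leukocytes gave few genes above the minimum level. Of the neutrophil list, 3 genes were tested and 2 were past 2-fold higher. *S100a8*, a calcium-binding protein of granulocytes, had 407 UMIs in 13 leukocyte-gene cells, at 3.16 UMIs per 10,000 against 0.139, and *Csf3r*, the G-CSF receptor, stood at 0.101 against 0.00140. The defining neutrophil genes *S100a9*, *Ly6g*, *Elane*, *Ngp*, *Ltf* and *Retnlg* each had 0 UMIs in leukocyte-gene cells. *Lcn2*, which stressed endothelium also makes, was not past 2-fold (2.32 against 1.70). Of the T and NK cell list, 1 of 2 genes tested was past 2-fold higher. This was *Il7r*, the interleukin-7 receptor, with 96 UMIs in 22 leukocyte-gene cells against 1 UMI in other cells, a log2 ratio of 9.05 (6.54 to 14.37). *Cd3e*, *Cd4* and *Cd8a* were at 0 in both classes, and the 21 UMIs of *Nkg7*, a gene of cytotoxic lymphocytes, lay in 1 cell. A leukocyte-gene cell of suffix 3 with 9,442 UMIs held 34 UMIs of this list, spread over 6 genes. It had 105 pan-leukocyte UMIs but 4 of the macrophage and monocyte list, unlike most cells rich in leukocyte genes.

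The B cell list had no past 2-fold higher gene, and *Ebf1*, which is also expressed outside B cells, was past 2-fold lower at 0.552 against 1.61. *Ms4a1* and *Pax5* were at 0 in both classes. Of the dendritic cell list only *Zbtb46*, which endothelial cells share, was tested and was past 2-fold lower (0.0933 against 0.260). The mast cell and basophil list had no gene tested and stood at 0.0933 UMIs per 10,000 against 0.0646. MHC class II genes, which antigen-presenting cells express, had 1 of 3 genes past 2-fold higher, *Cd74*, at 0.808 against 0.347. *H2-Ab1* stood at 0.148 against 0.167 and *H2-Aa* at 0.117 against 0.0814, and reads of these related genes can be hard to assign. Of the megakaryocyte and platelet list, *Pf4*, a chemokine of platelets, was tested and was past 2-fold higher at 8.27 against 0.626, while *Gp9* and *Tubb1* had 0 UMIs in leukocyte-gene cells.

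The pan-endothelial list moved the other way. Of its 20 genes, all tested, 17 were past 2-fold lower in leukocyte-gene cells and 0 higher, with a median log2 ratio of -1.32 against -0.32 for all genes tested. The summed level was 21.9 UMIs per 10,000 in suffix 1, 55.2 in suffix 2 and 63.6 in suffix 3, against 100, 114 and 104 in other cells, a log2 ratio of -1.27 (-1.31 to -1.23). The suffix with the most leukocyte UMIs per 10,000 had the fewest endothelial ones. *Cdh5* (plus strand of chromosome 8, 104,101,625 to 104,144,511) stood at 2.29, 6.45 and 7.50 in suffixes 1 to 3 against 10.7, 12.4 and 9.99. *Egfl7*, a secreted endothelial factor, stood at 5.48 against 14.6 over all suffixes, *Pecam1* at 3.22 against 8.81 and the tight junction gene *Cldn5*, which was not past 2-fold, at 5.67 against 10.6.

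**Figure D1:**
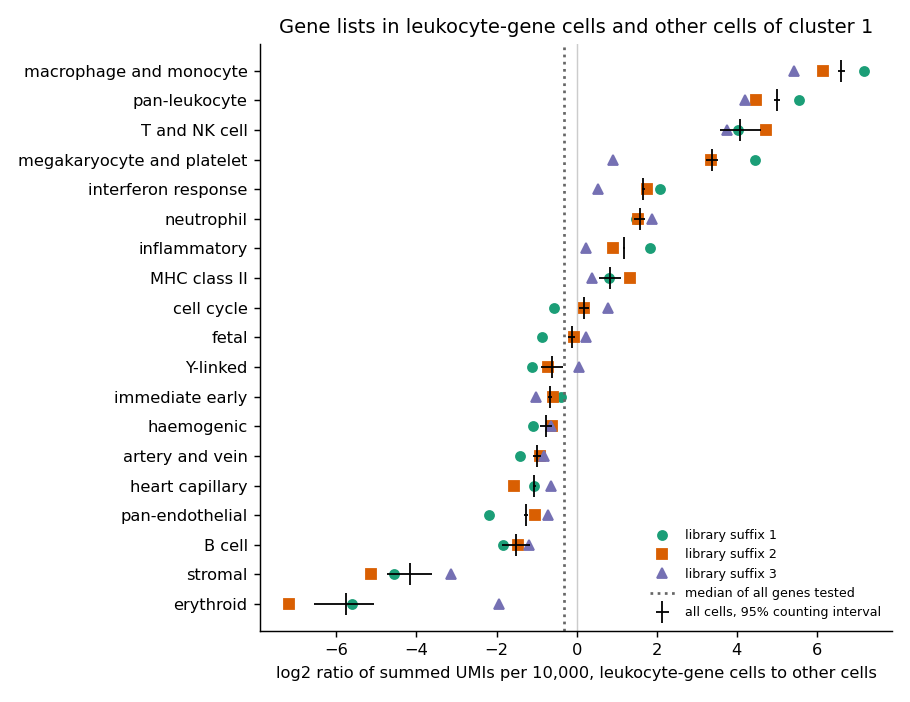
The plot shows, for 19 gene lists, the log2 ratio of summed UMIs per 10,000 between leukocyte-gene cells and other cells, with 1 symbol for each library suffix, a black bar for all cells with its 95% counting interval and a dotted line at the median of all genes tested (-0.32). The macrophage list lies furthest to the right, at 6.61 over all cells, and the pan-endothelial list lies left of the dotted line in each suffix.

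Sums hide that leukocyte-gene cells were not alike. Of the 75 cells, 29 had under 10 of the 24 pan-leukocyte genes, with between 0 and 7, and 46 had 10 to 22. No cell had 8 or 9. The 46 cells were 22 of 29 in suffix 1, 15 of 24 in suffix 2 and 9 of 22 in suffix 3. Suffix values of the 75 cells therefore also differ in this mix. Among these 46 cells the number of pan-endothelial genes was either at most 6 (22 cells) or at least 9 (24 cells). The 3 groups were drawn after these values had been seen, so the lists that drew them describe the groups and are no evidence for them. They are called endothelial-poor cells (10 or more leukocyte genes, up to 6 endothelial genes), dual cells (10 or more leukocyte and over 6 endothelial genes) and leukocyte-poor cells (under 10 leukocyte genes). The first 2 groups bear the name leukocyte-gene cell by the way they were drawn. Of the leukocyte-poor cells, 4 had no UMI of the 24 pan-leukocyte genes at all.

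**Figure D2:**
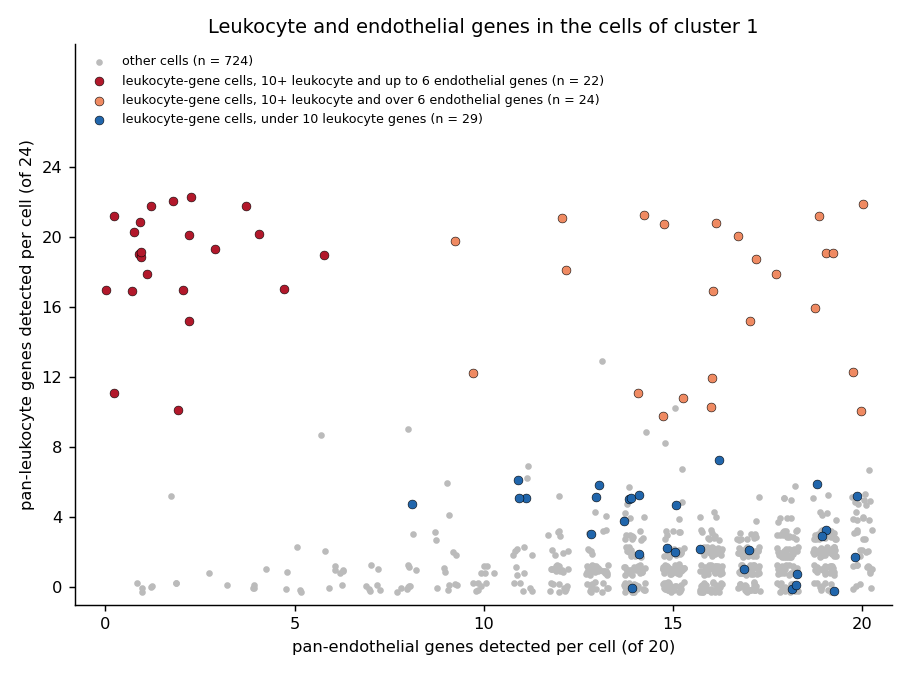
Each point is 1 cell of cluster 1, placed by the number of pan-endothelial genes (of 20, horizontal) and pan-leukocyte genes (of 24, vertical) with at least 1 UMI, with a small random shift so that points do not hide each other. The 22 endothelial-poor cells sit at the upper left, the 24 dual cells at the upper right, and the 29 leukocyte-poor cells lie among the 724 other cells at the bottom.

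The 22 endothelial-poor cells, 12 in suffix 1, 7 in suffix 2 and 3 in suffix 3, had a median of 14,174.5 UMIs. *Cdh5* had 2 UMIs and *Pecam1* 2 UMIs in all of them together, each in 2 of the 22 cells, at 0.0555 UMIs per 10,000, where other cells had 10.8 and 8.81. In 3 cells no UMI of any of the 20 pan-endothelial genes was found, and in 8 there was 1. The pan-endothelial level was 1.05, 1.53 and 2.02 UMIs per 10,000 in suffixes 1 to 3, low by the way the group was drawn. The stromal-gene cluster 4 and cluster 5, not drawn by this list, stood at 7.68 and 9.75 in sum. The median cell of cluster 4 stood at 2.48, so no conclusion is drawn from this comparison. Their pan-leukocyte level was 151, 146 and 139 in suffixes 1 to 3, and the macrophage level 345, 436 and 217. *Lyz2* stood at 173 UMIs per 10,000 and was found in 20 of 22 cells, *Csf1r* in 19, *Adgre1* in 19, *C1qb* in 16 and *Mrc1* in 8. *Pf4*, at 24.3, was found in 18 of these cells, and *Ppbp*, another platelet chemokine, in 0.

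The 24 dual cells, 10 in suffix 1, 8 in suffix 2 and 6 in suffix 3, were the deepest, with a median of 20,428 UMIs and a maximum of 89,926. Their pan-leukocyte level was 99.0, 55.5 and 40.7 UMIs per 10,000 in suffixes 1 to 3 and their pan-endothelial level 24.2, 47.4 and 51.4. Over all suffixes they lay between the endothelial-poor cells and other cells in both lists. *Lyz2* was found in 23 of 24 cells, *Tyrobp* in 24, *Cdh5* in 23 and *Pecam1* in 22. The suffix 3 cell with 34 T and NK cell UMIs was among the dual cells. *Xist* and Y-linked UMIs occurred together in 7 of the 24 dual cells (29.2%, 12.6–51.1%), in 1 of the 22 endothelial-poor cells, in 0 of the 29 leukocyte-poor cells and in 35 of the 724 other cells (4.83%, 3.39–6.66%). At 5,000 UMIs per cell both were found in 1 of 24 dual cells (4.17%, 0.105–21.1%) and 17 of 670 other cells (2.54%, 1.48–4.03%), a difference that was not detectable at this depth. No doublet caller was run, and the part of 2 cells in 1 droplet was not tested.

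In 6 of the 24 dual cells there were at least 90 UMIs of the 10 fetal genes, between 92 and 287, with 43 to 175 UMIs of the 10 cell cycle genes and a median of 36,946 UMIs in all. The other 18 dual cells had at most 19 fetal and 9 cell cycle UMIs and a median of 15,523. Only 1 further leukocyte-gene cell, of the leukocyte-poor group, reached 90 fetal UMIs. This cut, made within groups drawn after the values were seen, counts UMIs without regard to depth. The level of the fetal list was 1.33 UMIs per 10,000 (0.982–1.77) in endothelial-poor cells, 15.3 in dual cells, 7.53 in leukocyte-poor cells and 10.2 in other cells. Over all leukocyte-gene cells 1 of the 8 fetal genes tested, *Igf2bp3*, was past 2-fold higher and 0 were lower, and *Mest*, the highest of them, stood at 4.09 against 4.34.

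The 29 leukocyte-poor cells, 7 in suffix 1, 9 in suffix 2 and 13 in suffix 3, resembled other cells in depth and endothelial genes. Their median was 8,662 UMIs, against 7,653.5 in other cells. The pan-endothelial level was 99.2 (95.8–103) against 104 (103–105), and *Cdh5* and *Pecam1* were found in all 29. Their summed pan-leukocyte level of 5.70 (4.91–6.59) lay above the 2.37 (2.26–2.49) of other cells, and *Lyz2* stood at 3.72 UMIs per 10,000. The pan-leukocyte UMIs were unevenly spread. A cell of 7,516 UMIs held 38 of them and a cell of 12,343 UMIs held 18. Of the 31 cells with a single UMI of *Ptprc* or *Spi1*, the median number of pan-leukocyte genes was 5, while the 21 cells with 10 or more UMIs of the pair had a median of 20.

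**Figure D3:**
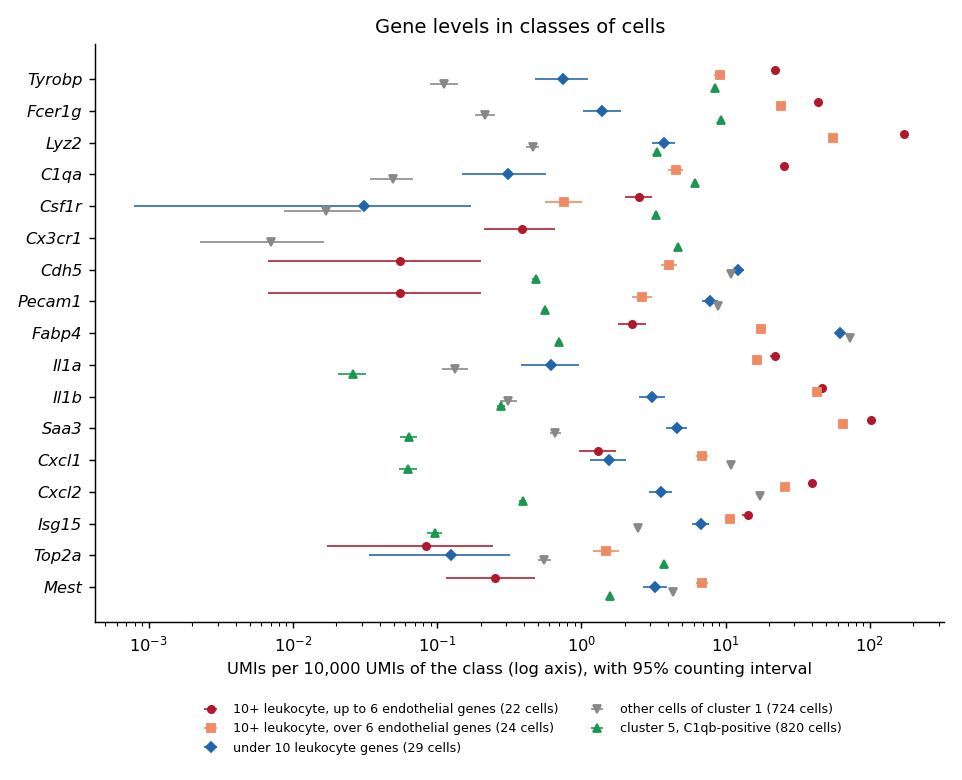
Levels of 17 genes are shown on a log axis as UMIs per 10,000 UMIs of the class, with 95% counting intervals, in the 3 groups of leukocyte-gene cells, in other cells and in *C1qb*-positive cells of cluster 5. Values of 0 are left out. *Lyz2* falls from 173 in endothelial-poor cells to 0.459 in other cells, while *Cdh5* rises from 0.0555 to 10.8.

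Among 16 genes of inflamed endothelium, cytokines, chemokines and adhesion molecules, 2 were past 2-fold higher and 6 past 2-fold lower in leukocyte-gene cells. The higher genes were *Saa3*, an acute-phase apolipoprotein made by macrophages and stromal cells, and *Il1a*, the cytokine interleukin-1α. *Saa3* (minus strand of chromosome 7, 46,711,998 to 46,715,700) stood at 112 UMIs per 10,000 in suffix 1, 27.3 in suffix 2 and 17.4 in suffix 3, against 0.839, 0.502 and 0.504. *Il1a* (minus strand of chromosome 2, 129,299,610 to 129,309,972) stood at 21.2, 3.30 and 15.2 against 0.197, 0.117 and 0.0517. The suffixes differed widely in these genes, yet the summed level in each lay above that of other cells in all suffixes.

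The chemokine genes of the list did not follow. *Cxcl2*, a neutrophil attractant, was not past 2-fold, at 24.1 against 17.2 over all suffixes, and was lower in leukocyte-gene cells of suffix 3 (17.5 against 25.4). *Ccl2*, a monocyte attractant, stood at 10.3 against 11.8. *Cxcl1*, another neutrophil attractant, was past 2-fold lower at 3.96 against 10.9, as were the leukocyte adhesion genes *Selp*, *Sele* and *Vcam1* and the cytokine genes *Lif* and *Csf2*. The summed list gave a log2 ratio of 1.19 (1.16 to 1.22), with 1.84, 0.90 and 0.23 in suffixes 1 to 3, although its median gene was at -0.67, since *Saa3* alone gave 7,777 of the 15,717 UMIs. Without suffix 1 the summed ratio was 0.36. The sum in other cells was carried by few cells, with a median over cells of 2.02 UMIs per 10,000, a maximum of 2,371 and 224 of 724 cells at 0. In leukocyte-gene cells the median was 40.9 and 3 of 75 cells were at 0. By suffix the medians were 114, 24.0 and 16.9 against 3.36, 1.79 and 1.51, so the medians differed more than the sums. These medians mix unlike groups, with 63.1 in endothelial-poor and 81.6 in dual cells. Leukocyte-poor cells held from 0 UMIs of the list, as in a cell of 29,221 UMIs, to 257 in a cell of 7,516.

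The same genes, read by where their molecules lay, show how much of cluster 1 these cells account for. The 75 cells held 15.3% of all UMIs of the cluster and 94.3% of its *Saa3* UMIs, 95% of *Il1a*, 95.1% of *Il1b* and 96.7% of *Lyz2*. *Il1b* and the chemokine genes *Ccl3* and *Ccl4* are named here after their values were seen, apart from *Ccl4*, which also ranked among the top genes given below. The 46 endothelial-poor and dual cells, which held 4.29% and 7.17% of the UMIs, together accounted for 92.5% of the *Saa3* UMIs, 93.9% of *Il1a*, 96.5% of *Ccl3* and 97.5% of *Ccl4*. By contrast, leukocyte-gene cells held 6.14% of the *Cxcl1* UMIs, 13.7% of *Ccl2*, 16.1% of *Csf3* and 20.2% of *Cxcl2*. Most of the *Saa3*, *Il1a* and *Il1b* molecules of cluster 1 therefore lay in cells chosen by *Ptprc* or *Spi1*, and most of the *Cxcl1*, *Ccl2* and *Csf3* molecules did not.

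**Figure D4:**
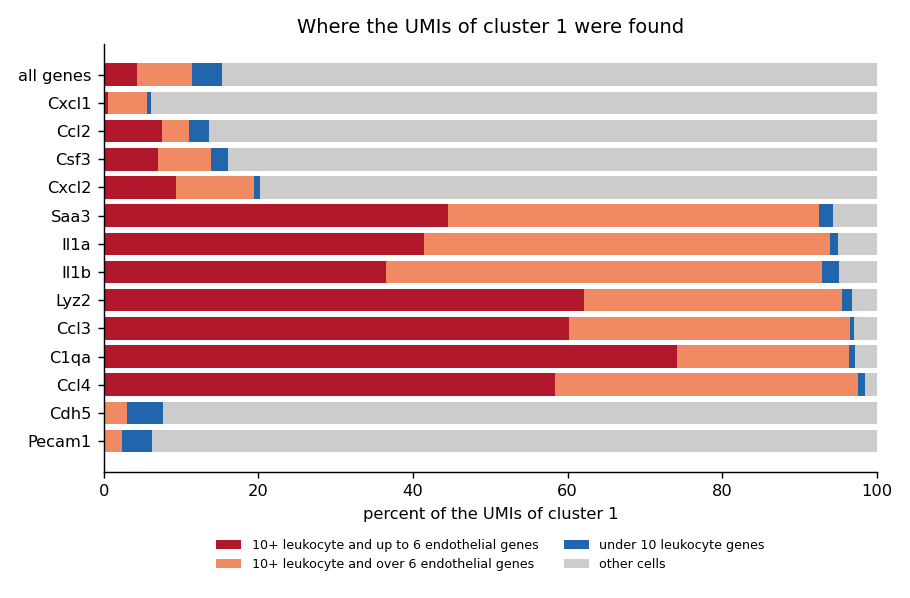
Each bar divides the UMIs of 1 gene in cluster 1 by percent among endothelial-poor, dual and leukocyte-poor cells and other cells, and the top bar does so for all genes. Leukocyte-gene cells held 15.3% of all UMIs but between 94.3% (*Saa3*) and 98.4% (*Ccl4*) for *Saa3*, *Il1a*, *Il1b*, *Lyz2*, *Ccl3*, *C1qa* and *Ccl4*.

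Of 12 interferon-response genes 7 were past 2-fold higher and 0 lower, and the list stood at 71.7, 63.6 and 28.5 UMIs per 10,000 in suffixes 1 to 3 against 16.9, 18.9 and 19.6. *Bst2*, a membrane protein that tethers viruses, stood at 11.4 against 5.19, *Isg15*, a ubiquitin-like modifier, at 10.7 against 2.46 and *Irf7*, a transcription factor of the response, at 5.57 against 0.692. *Rsad2*, the antiviral enzyme viperin, stood at 9.86 against 2.83 but was not past 2-fold in the same direction in each suffix, with 3.66 against 3.97 in suffix 3. In sum all 3 groups lay above the 18.2 of other cells, with 78.6 in endothelial-poor, 57.4 in dual and 35.1 in leukocyte-poor cells. The leukocyte-poor sum was unevenly spread, with a median over cells of 10.9 against 7.998 in other cells and a maximum of 255. Within suffixes 1 to 3 the leukocyte-poor medians were 33.9, 6.28 and 9.24 against 7.02, 8.22 and 9.65 in other cells. The typical leukocyte-poor cell was therefore not raised in suffixes 2 and 3. Of 10 immediate early genes, which dissociation can induce, 0 were past 2-fold higher and 4 past 2-fold lower by summed UMIs. The list stood at 24.6 UMIs per 10,000 against 38.9 in sum, but the medians over cells were close, at 21.8 and 21.9, with a maximum of 129 against 549. *Jun* stood at 4.21 against 11.0, *Fos* at 6.04 against 5.43, *Junb* at 5.99 against 8.95 and *Ier2* at 2.51 against 3.74.

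Heart capillary genes were lower. Of 12 genes 9 were past 2-fold lower and 1 past 2-fold higher, at 51.8 UMIs per 10,000 against 108. The fatty acid carrier *Fabp4* stood at 24.5 against 72.3 and *Gpihbp1*, which holds lipoprotein lipase on capillaries, at 3.54 against 11.3. The higher gene was *Fabp5*, a carrier that macrophages also use, at 16.5 against 7.31, and it reached 37.5 in endothelial-poor cells, where *Fabp4* stood at 2.25. The fatty acid receptor *Cd36* was not past 2-fold, at 3.07 against 4.22. Of 11 artery and vein genes tested, 10 were past 2-fold lower and 0 higher. The Notch ligand *Dll4* stood at 0.902 against 2.26, *Efnb2* at 0.731 against 1.90 and the apelin receptor *Aplnr* at 0.700 against 1.74, while *Nrp2*, which macrophages also express, stood at 3.25 against 3.13.

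Of 9 haemogenic genes tested, transcription factors and receptors of blood formation, 2 were past 2-fold higher and 4 past 2-fold lower. The higher genes were *Runx1* (0.513 against 0.0912) and *Ikzf1* (0.194 against 0.00702), both of which mature leukocytes also express. *Runx1* was found in 18 of 22 endothelial-poor cells, 12 of 24 dual cells, 1 of 29 leukocyte-poor cells and 43 of 724 other cells. The stem and progenitor genes *Kit* (0.474 against 1.22), *Mecom* (0.428 against 1.29) and *Gata2* (0.202 against 0.580) were past 2-fold lower, *Lmo2* stood at 0.925 against 1.42, and *Myb* and *Hlf* had 0 UMIs in leukocyte-gene cells. Of 10 cell cycle genes 1, *Ccnb1*, was past 2-fold higher and 0 were lower. The cell cycle level was 1.14 in endothelial-poor cells, 9.05 in dual cells, 2.05 in leukocyte-poor cells and 4.43 in other cells, and 23.7 in cluster 5.

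Markers of further cell types were not raised. The stromal list had 3 of 3 tested genes past 2-fold lower, led by *Dcn*, a collagen-binding proteoglycan, at 0.0389 against 2.77. The erythroid list had 4 of 5 past 2-fold lower, but 2,501 of its 4,759 UMIs in other cells were of *Hbb-bs* in 6 cells. This gene had 1 UMI each in 2 leukocyte-gene cells, and the near-identical globin genes can share reads. The cardiomyocyte list had 2 of 4 past 2-fold lower and 0 higher and stood at 0.490 against 0.731. Y-linked genes had 0 of 4 past 2-fold in either direction (0.987 against 1.52 in sum), and *Xist* stood at 1.67 against 1.55.

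Across the genome 608 genes were past 2-fold higher in leukocyte-gene cells and 1,105 past 2-fold lower. Ranked among genes past 2-fold that reached 1 UMI per 10,000 and 10% of the cells of their higher class, *Adgre1*, the macrophage surface receptor F4/80, had the largest ratio upwards. It had 195 UMIs in 35 leukocyte-gene cells and 2 UMIs in other cells, a log2 ratio of 9.08 (7.20 to 12.13). *Mpeg1*, a pore-forming protein of macrophages, followed with 390 UMIs against 4 (log2 ratio 9.08, 7.71 to 10.96). Next came *Cd84*, a surface receptor of leukocytes (8.51), the chemokine gene *Ccl4* (8.42), *Cybb*, the catalytic subunit of the phagocyte oxidase (8.37), *Rgs1*, a regulator of G protein signalling (8.19), *Ctss* (8.16), the Fc receptor gene *Fcgr4* (8.06), the C-type lectin gene *Clec4n* (8.02) and *Ms4a7* (8.01). At a minimum level of 0.1 in place of 1 UMI per 10,000, 7 of these 10 stayed among the first 10.

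In the other direction the largest ratios were those of *Mgp*, an inhibitor of calcification (-4.01), *Selp*, which encodes P-selectin (-3.12), *Clu*, an extracellular chaperone (-3.08), the arterial connexin gene *Gja4* (-2.69) and *Igfbp5*, which binds insulin-like growth factors (-2.49). They were followed by the matrix gene *Ltbp4* (-2.36), *Edn1*, the vasoconstrictor endothelin-1 (-2.23), *Tnfrsf12a* (-2.15), *Sept4* (-2.14) and the water channel gene *Aqp1* (-2.13). Several of these genes were found in a minority of other cells, *Igfbp5* in 12.4% and *Selp* in 14.8%. At the lower minimum level 3 of these 10 stayed among the first 10.

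Some other cells carried leukocyte genes without a UMI of *Ptprc* or *Spi1*. Of the 724 cells, 188 had none of the 24 pan-leukocyte genes, 146 had 3 or more, 31 had 5 or more and 2 had 10 or more. Just outside the rule, the cell with most had 13 pan-leukocyte genes at 8,112 UMIs, with 27 UMIs of *Lyz2*, 7 of *Tyrobp* and 2 of *Cdh5*. 3 genes that endothelium also expresses, *Hcls1*, *Ptpn18* and *Lcp1*, gave 414, 381 and 248 of the 1,691 pan-leukocyte UMIs in other cells. At 5,000 UMIs per cell, 3 or more pan-leukocyte genes were found in 103 of 745 cells of cluster 1 (13.8%, 11.4–16.5%), of which 59 were leukocyte-gene cells and 44 other cells. The share among the other cells, from which the rule had taken cells with *Ptprc* or *Spi1*, was 6.57% (4.81–8.72%). Over whole clusters, the 13.8% of cluster 1 stood beside 8.65% (7.91–9.43%) in cluster 2, 16.3% (13.7–19.2%) in cluster 0 and 2.15% (1.08–3.81%) in cluster 4. At that depth 14.2% of all cells in cluster 1 had *Lyz2* (11.8–16.9%), while cluster 2 reached 1.73% (1.40–2.11%) and cluster 0 reached 2.22% (1.27–3.57%). Of the other cells of cluster 1, 7.91% (5.98–10.2%) had it. Few of the other cells lacked endothelial genes, and 28 of 724 (3.87%) had at most 6 of the 20.

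The endothelial-poor cells were set beside the 820 cells of cluster 5 with a UMI of *C1qb*. Clusters were made from these counts, so the comparison is a description. Of 8,525 genes tested, 939 (11.0%) were past 2-fold higher in endothelial-poor cells and 2,586 (30.3%) past 2-fold lower, with a median log2 ratio of -0.43. Pan-leukocyte genes stood at 148 UMIs per 10,000 (144–152) against 65.2, with 10 of 24 past 2-fold higher and 3 lower. This list also drew the endothelial-poor cells but not those of cluster 5, so no conclusion is drawn from its level. *Lyz2* was higher, at 156, 274 and 102 UMIs per 10,000 in suffixes 1 to 3 against 3.49, 3.32 and 3.20. *C1qa* was past 2-fold higher, at 25.3 against 6.14. *Csf1r* (2.50 against 3.27) and *C1qb* (19.8 against 13.7) were not past 2-fold, although *C1qb* chose the cells of cluster 5. *Cx3cr1* (0.388 against 4.68) and *Mrc1* (0.999 against 2.74) were past 2-fold lower.

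The largest ratios upwards were those of *Cxcl14*, a chemokine gene (log2 ratio 11.02, 9.09 to 14.11), *Saa3* (10.65), *Gpnmb*, a glycoprotein of lipid-laden macrophages (10.13), *Spp1*, which encodes osteopontin (10.04), *Ccl5* (9.96), *Csf3* (9.90), the prostaglandin synthase gene *Ptges* (9.77), *Il1a* (9.72), *Slamf7* (9.67) and *Il1rn*, the interleukin-1 receptor antagonist (9.59). Downwards, 10 of 10 cell cycle genes and 8 of 9 fetal genes were past 2-fold lower. *Top2a* stood at 0.0832 against 3.71, *Mki67* at 0.111 against 3.33 and *Mest* at 0.250 against 1.59. The 10 largest ratios downwards included the replication and mitosis genes *Mcm3* (-6.48), *Cdca8* (-6.51) and *Tpx2* (-5.96). The endothelial-poor cells were shallower, with a median of 14,174.5 UMIs against 35,468.5. Whether they came from fresh hearts or from co-aggregates was not tested.

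In the deposited UMAP embedding, whose coordinates have no unit, all 22 endothelial-poor cells lay below 0 on the first coordinate (-1.65 to -0.207). All 724 other cells and all 29 leukocyte-poor cells lay above 0, while 10 of the 24 dual cells lay below it. The endothelial-poor cells were thus placed at the low end of cluster 1 on the first coordinate. Of the *C1qb*-positive cells of cluster 5, 449 of 820 also lay below 0, as did 572 of all 1,572 cells of cluster 5. On the first coordinate the median of the endothelial-poor cells was -0.487, nearer to the -0.289 of the *C1qb*-positive cells than to the 4.54 of other cells. On the second coordinate the median of the endothelial-poor cells was 14.6, nearer to the 13.9 of other cells than to the 10.4 of the *C1qb*-positive cells.

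**Figure D5:**
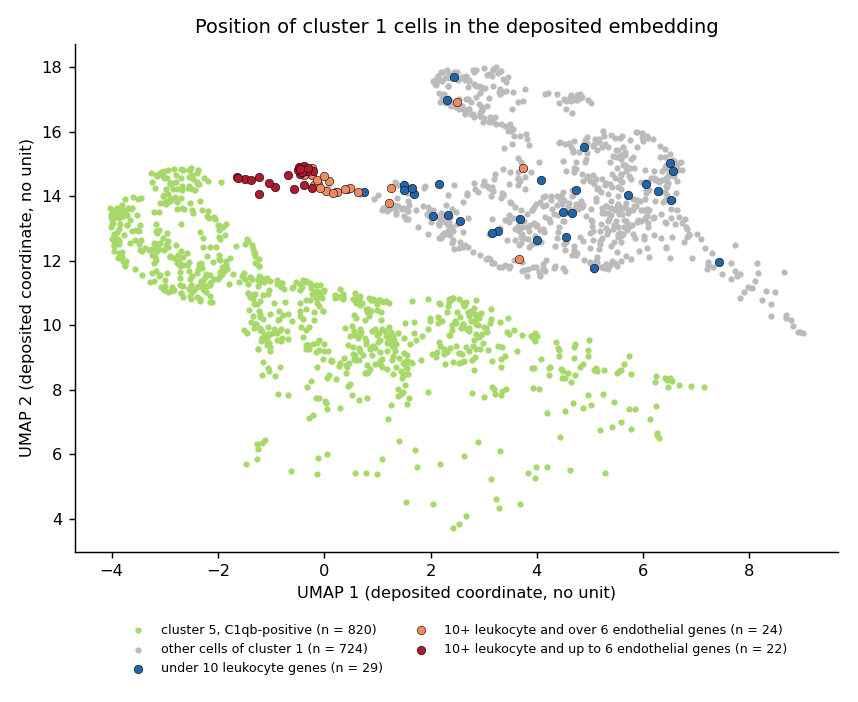
Cells of cluster 1 and *C1qb*-positive cells of cluster 5 are placed by the 2 deposited UMAP coordinates, with endothelial-poor cells in red, dual cells in orange, leukocyte-poor cells in blue, other cells in grey and cluster 5 in green. The 22 endothelial-poor cells form 1 strip between -1.65 and -0.207 on the first coordinate, and the leukocyte-poor cells are spread among the other cells.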

How the data were processed

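The data are 10x Genomics 3′ v3 single-cell libraries of sorted cardiac endothelial cells (3 pools). Per the labels and methods, reads were aligned to mm10 by the authors in Cell Ranger 3.1.0, which aggregated the libraries with batch-effect removal and singlets of at least 5,000 UMIs were kept. The submitters' processing notes also name Seurat 3.1.5. The deposited counts are whole UMIs for each Ensembl gene in each cell and are not normalized. Of the 9,562 cells, 9,472 had at least 5,000 UMIs. The deposited UMAP coordinates (a score without unit) and Leiden cluster numbers were used as given, and the deposited normalized table was not used. The table held 0 columns of other samples.

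Of 27,998 identifiers, 27,645 were named from GENCODE M21 (GRCm38), and 4 repeated names were summed, which left 27,994 genes. Levels are sums of UMIs per 10,000 UMIs of a class. Shares have exact Clopper–Pearson intervals, levels exact Poisson intervals and log2 ratios exact conditional binomial intervals, at 95%. Suffixes could not be tied to pools and cells are not replicates, so the matrix was handled as 1 sample, ratios within each suffix were given without a test, and counting intervals cover neither animals nor cultures. *Ptprc* and *Spi1* were left out of all lists and counts. Thinning drew 5,000 UMIs per cell without replacement (seed 1). A level of 0 was given an upper limit of 3 UMIs.

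Members and lists were chosen with earlier results of these data known. The text names *Ptprc*, *Spi1*, *Lyz2*, up to 4 genes of each of 22 lists by highest level in either class, and the first 10 by ratio upwards and downwards. Other genes were named after their values were seen, to describe a group, a missing marker or an exception. The lists held 269 genes, of which 265 were found, and *Ighm*, *Iglc2*, *Trbc1* and *Trbc2* were not. The comparisons were tested on simulated data. Alternatives changed the rule for the cells, the depth, the weights and the minimum level, and left out each suffix. Scripts used scipy 1.17.1, numpy 2.4.6, pandas 2.3.3 and matplotlib 3.10.9 in Python 3.11.15.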

Additional observations from a re-analysis of the deposited data

How the results depend on the processing

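Of the list ratios, only those of the pan-leukocyte, macrophage, pan-endothelial and inflammatory lists were put to alternatives. None of these changed its direction, while shares and counts of genes have no direction to change. Ratios of some other lists differed in direction between suffixes, such as the cell cycle list with log2 ratios of -0.57, 0.18 and 0.79 in suffixes 1 to 3. Leaving out each suffix gave a share of leukocyte-gene cells of 8.23–11.1%, 576–758 genes past 2-fold higher and 910–1,599 lower, and log2 ratios of 4.40–5.18 for pan-leukocyte, 6.02–6.80 for macrophage, -1.53 to -0.87 for pan-endothelial and 0.36–1.53 for inflammatory genes. With at least 2 UMIs of *Ptprc* or *Spi1* the share was 5.51%, and with *Ptprc* alone 6.01%. A minimum level of 1 left 197 higher and 246 lower genes, no minimum beyond 3 UMIs gave 2,399 lower genes, and the rule of 2 UMIs gave 1,874 lower genes. With classes split at 5,000 UMIs the ratios were 4.49 (pan-leukocyte), 5.42 (macrophage), -1.71 (pan-endothelial) and 1.38 (inflammatory). With *Ptprc* alone they were 4.92, 5.80, -1.61 and 1.39, and with *Spi1* alone 4.80, 6.02, -1.55 and 1.37, in the same order. The rule of 2 UMIs gave 6.11 (macrophage), -2.18 (pan-endothelial) and 1.55 (inflammatory). The mean of the cells gave 4.78, 6.18, -1.05 and 0.84. Other cells weighted to the depth and suffix of leukocyte-gene cells gave 5.10 (pan-leukocyte), 7.11 (macrophage) and 1.54 (inflammatory). Without the dual cells, an alternative chosen after seeing the data, the values were 5.09, 6.87, -1.13 and 1.11. The share of cells of cluster 1 with at least 3 pan-leukocyte genes was 7.38% at 2,000 UMIs, 28.9% with at least 2 genes and 7.79% with at least 5. The cause of these shifts was not tested. Both classes were compared within each suffix, and no test was run over these 3 ratios. Counts near 0, such as the 2 *Cdh5* UMIs of endothelial-poor cells, limit what depth can show.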
